A study of Homo sapiens with 24 samples.

Results

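Complex I of the mitochondrial respiratory chain is the enzyme that rotenone inhibits, and the mRNAs of its parts were followed here in 3D aggregates of LUHMES cells. The genes were chosen from a list of nuclear genes, 36 subunits and 12 assembly factors, by the transcript accession of each array probe and not by any measured value. Earlier results of these data were known when the list was chosen. All 48 were among the 21240 genes tested. LUHMES is a human mesencephalic cell line, immortalized through a v-myc gene that tetracycline switches off, which then differentiates into dopaminergic neurons. All aggregates were differentiated under gyratory shaking in medium with cAMP, GDNF and tetracycline. RNA was hybridized to 24 Agilent one-colour arrays, 3 in each of 8 groups. On day 7 of differentiation aggregates received DMSO or rotenone, which was given at 50 nM over either 12 h or 24 h, or at 100 nM over 24 h. One set of the 4 groups was collected at the end of exposure (day 8) and the other after wash-out and 7 days of recovery (day 15). The DMSO groups received the amount of DMSO that came with 100 nM rotenone. The labels give no exposure time for DMSO, so that a 12 h exposure and a difference in the time of collection cannot be told apart. The 3 samples of a group are wells of one cell line, and the p-values measure the spread between such wells.

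Complex I oxidizes NADH, passes the electrons along flavin and iron-sulfur clusters to ubiquinone and pumps protons across the inner mitochondrial membrane. It is L-shaped, with a matrix arm that carries the redox centres and a membrane arm that pumps. A small set of core subunits does the chemistry. The larger set of accessory subunits surrounds them, and assembly factors build the modules and leave the finished enzyme. Rotenone binds where ubiquinone is reduced, near the junction of the arms, and dopaminergic neurons are known to be sensitive to this block. The mitochondrially encoded subunits were not analysed here.

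The 48 genes were measured by 57 probes, 39 genes by 1 probe and 9 by 2. Every one of the probes was well above background on all 24 arrays and 0 were saturated, so that all 48 members passed the filter on dim spots whichever group was high. No member value was missing. The median standard error of a log2 change was 0.097 for the members against 0.18 for all genes. Values are log2 normalized intensities, and a level is compared only within a gene. The markers TUBB3, MAP2, STMN2, SYT1 and RBFOX3 of neurons were well above background on all arrays of all 8 groups. Of 5 dopaminergic markers 4 were, whereas SLC18A2 was on no array of 5 of the groups. Markers of other cell types were partly detected. In each group 1 or 2 of 5 astrocyte markers, 0 or 1 of 4 microglial, 2 or 3 of 4 oligodendrocyte and 1 to 3 of 5 fibroblast markers were well above background on all arrays, while GFAP of astrocytes was on no array of 7 groups. The scan of slide 1 was made on a separate day and had more spots well above background (67.3% to 82.4%, against 50.9% to 62.4% on the others). Each slide held 1 array of each group, always at one fixed place, and the effects of place and of group cannot be told apart. The scan of DMSO replicate 1 on day 15 does not name DMSO, and its group rests on its label.

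After 24 h of 100 nM rotenone, 4 of the 48 genes had changed on day 8, and most of the complex had not changed past the threshold. NDUFV3, NDUFAF3 and NDUFB4 were upregulated and NDUFA9 was downregulated. A call is an adjusted p under 0.05 in limma with Benjamini-Hochberg adjustment over all genes. The 3 upregulated members are 6.25% of the list, where 4.07% of all genes were upregulated, and the 1 downregulated is 2.08%, where 5.41% of all genes were. The share of members called was thus near that of all genes. The median log2 change of the members was 0.03, against -0.02 for all genes tested, and 38 of 48 changed by less than 0.25. In 19 members (39.6%) the arrays of the 2 groups did not overlap, against 28.5% of all genes. In bulk RNA, fewer cells of a type and less RNA per cell cannot be told apart.

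NDUFV3, a small accessory subunit of the matrix arm beside the flavoprotein that oxidizes NADH, changed most. Its log2 intensities on day 8 were 10.83, 10.61 and 10.76 in DMSO and 11.48, 11.30 and 11.39 with 100 nM rotenone. All 3 treated arrays lay above all 3 controls. The log2 change was 0.65 ± 0.087 (SE, n = 3 arrays per group, limma adjusted p = 7.7e-05), or 1.57-fold. It was the only member past a fold change of 1.5 in this comparison. Within slides 1, 2 and 3 the change was 0.64, 0.69 and 0.63.

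NDUFAF3, an assembly factor that helps to build the ubiquinone-binding module, read 12.84, 12.54 and 12.69 in DMSO and 13.17, 13.18 and 13.23 with 100 nM. The groups did not overlap, and the log2 change was 0.50 ± 0.077 (SE, limma adjusted p = 0.000298), or 1.42-fold. Within the slides it ran from 0.31 on slide 1 to 0.64 on slide 2. NDUFB4, an accessory subunit of the distal membrane arm, read 13.12, 13.22 and 13.26 in DMSO and 13.59, 13.62 and 13.53 with 100 nM. Its arrays were also apart, with a log2 change of 0.38 ± 0.088 (SE, limma adjusted p = 0.0093). NDUFB4 was no longer called without DMSO replicate 1 (0.33, limma adjusted p = 0.053).

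NDUFA9 was the member that fell. It is a matrix arm subunit with a bound nucleotide that sits at the junction with the membrane arm. It read 9.84, 9.64 and 9.58 in DMSO and 9.23, 9.34 and 9.33 with 100 nM. The log2 change was -0.39 ± 0.084 (SE, limma adjusted p = 0.0054), or 1.31-fold lower. The fall was -0.63 on slide 1, -0.29 on slide 2 and -0.25 on slide 3. It was the same in direction but not called on slides 2 and 3 alone (-0.27).

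The promoters of these 4 genes are shown because the genes changed at every exposure described here. The windows are the 250 bases before the start in RefSeq (GRCh38.p14). Capitals mark TGCGCA, the core of the NRF1 motif, or GGGCGG, that of SP1, on either strand. NRF1 and SP1 are transcription factors known from many promoters of respiratory chain genes.
NDUFV3, chr21:42893059-42893308, plus strand: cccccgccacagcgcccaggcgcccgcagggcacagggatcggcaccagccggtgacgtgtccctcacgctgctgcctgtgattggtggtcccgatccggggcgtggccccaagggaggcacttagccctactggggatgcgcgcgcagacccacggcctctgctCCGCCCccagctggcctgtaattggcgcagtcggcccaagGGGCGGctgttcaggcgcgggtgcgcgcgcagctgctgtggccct
NDUFAF3, chr3:49021871-49022120, plus strand: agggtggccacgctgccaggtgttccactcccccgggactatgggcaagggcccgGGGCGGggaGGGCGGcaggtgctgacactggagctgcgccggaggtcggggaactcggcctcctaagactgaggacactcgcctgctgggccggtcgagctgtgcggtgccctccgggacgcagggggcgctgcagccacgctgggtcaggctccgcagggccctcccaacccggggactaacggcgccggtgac
NDUFB4, chr3:120596086-120596335, plus strand: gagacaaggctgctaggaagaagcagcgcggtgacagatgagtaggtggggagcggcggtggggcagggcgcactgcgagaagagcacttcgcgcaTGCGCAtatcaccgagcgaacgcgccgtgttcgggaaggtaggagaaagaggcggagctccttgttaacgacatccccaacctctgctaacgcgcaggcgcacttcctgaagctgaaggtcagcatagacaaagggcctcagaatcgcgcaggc
NDUFA9, chr12:4648864-4649113, plus strand: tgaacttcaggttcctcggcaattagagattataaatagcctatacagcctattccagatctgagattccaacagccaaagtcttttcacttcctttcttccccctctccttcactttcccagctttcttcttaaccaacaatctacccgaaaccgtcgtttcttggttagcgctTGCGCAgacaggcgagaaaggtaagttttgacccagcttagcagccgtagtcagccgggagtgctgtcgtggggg

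NDUFB4 and NDUFA9 each held TGCGCA once in these bases, and NDUFV3 held GGGCGG on both strands. NDUFAF3 has 4 starts in the table, of which the last is printed, as the one with the most matches. It held GGGCGG 2 times, while the first and the third window held none of these letters and the second held GGGCGG once. None of these matches overlapped. With the 50 bases after the start included, RefSeq gave 54 promoters for 42 of the members. NDUFB9, NDUFS5, NDUFB5, NDUFC2, NDUFAF6 and FOXRED1 had no entry. TGCGCA was in 13 of the 54 (24.1%), against 8.24% of all 35116 promoters in the table, and GGGCGG in 36 (66.7%), against 45%. CCGGAAG, an ETS motif, was in 6 (11.1%), against 10.3%. GATGGCG, a YY1 motif, was in 6 (11.1%), against 4.2%, and NDUFA9 held it after its start. TGACGTCA, the cAMP response element, was in 4 (7.41%), against 1.85%, and TGATGNAA, an ATF4 motif, in 2 (3.7%), against 3.62%. The member promoters were 61.2% G and C at the median before the start, against 58% for all. Promoters of one gene overlap in part, and a match is a description, not a bound site.

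**Figure D1:**
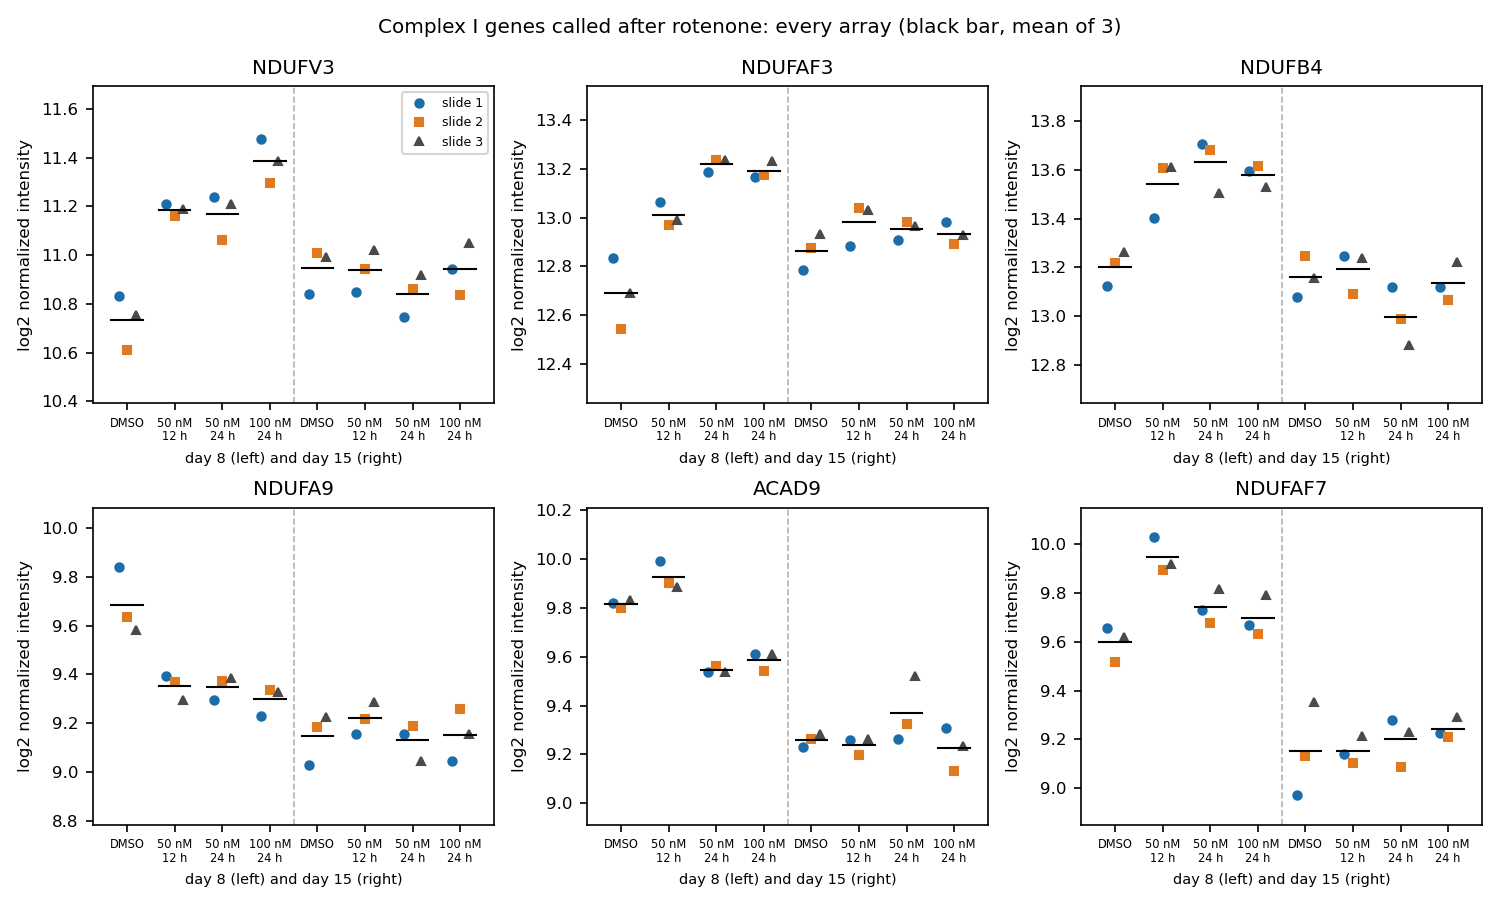
Log2 normalized intensity (vertical axis) of the 6 members called after rotenone on day 8, by group (horizontal axis, day 8 left and day 15 right of the dashed line). Each point is an array, marked by its slide, and the black bar is the mean of 3. NDUFV3, NDUFAF3 and NDUFB4 lie above their day 8 DMSO arrays at all exposures, NDUFA9 lies below, and on day 15 the rotenone groups lie around the DMSO group.

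By role, the core subunits had the smallest spread on day 8. The 6 core subunits, which hold the flavin and the iron-sulfur clusters, changed by -0.13 (NDUFV2) to 0.14 (NDUFS8) on the log2 scale with 100 nM, and 0 were called. Among the 9 accessory subunits of the matrix arm 1 rose (NDUFV3) and 1 fell (NDUFA9), with a range of -0.39 to 0.65. NDUFS4, a subunit of this arm whose loss is known to cause Leigh syndrome, gave 0.25 ± 0.083 (SE, limma adjusted p = 0.064). The 9 accessory subunits of the proximal membrane arm gave -0.26 (NDUFA8) to 0.26 (NDUFA10), with 0 called. NDUFA8 was called with the slide as a replicate block (limma adjusted p = 0.045). Of the 11 distal membrane arm subunits 1 was called (NDUFB4), with a range of -0.24 to 0.38. NDUFAB1, the mitochondrial acyl carrier protein, gave 0.02 ± 0.074.

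The MCIA assembly factors, which build the membrane arm, were not called with 100 nM. ACAD9, a flavoprotein of the acyl-CoA dehydrogenase family, gave -0.23 ± 0.072 (SE, limma adjusted p = 0.052) and ECSIT 0.24 ± 0.091 (limma adjusted p = 0.11). NDUFAF1 and TMEM126B gave -0.02 and 0.06. Among the 8 other assembly factors NDUFAF3 was called, and the rest ran from -0.26 (FOXRED1) to 0.30 (NDUFAF2).

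**Figure D2:**
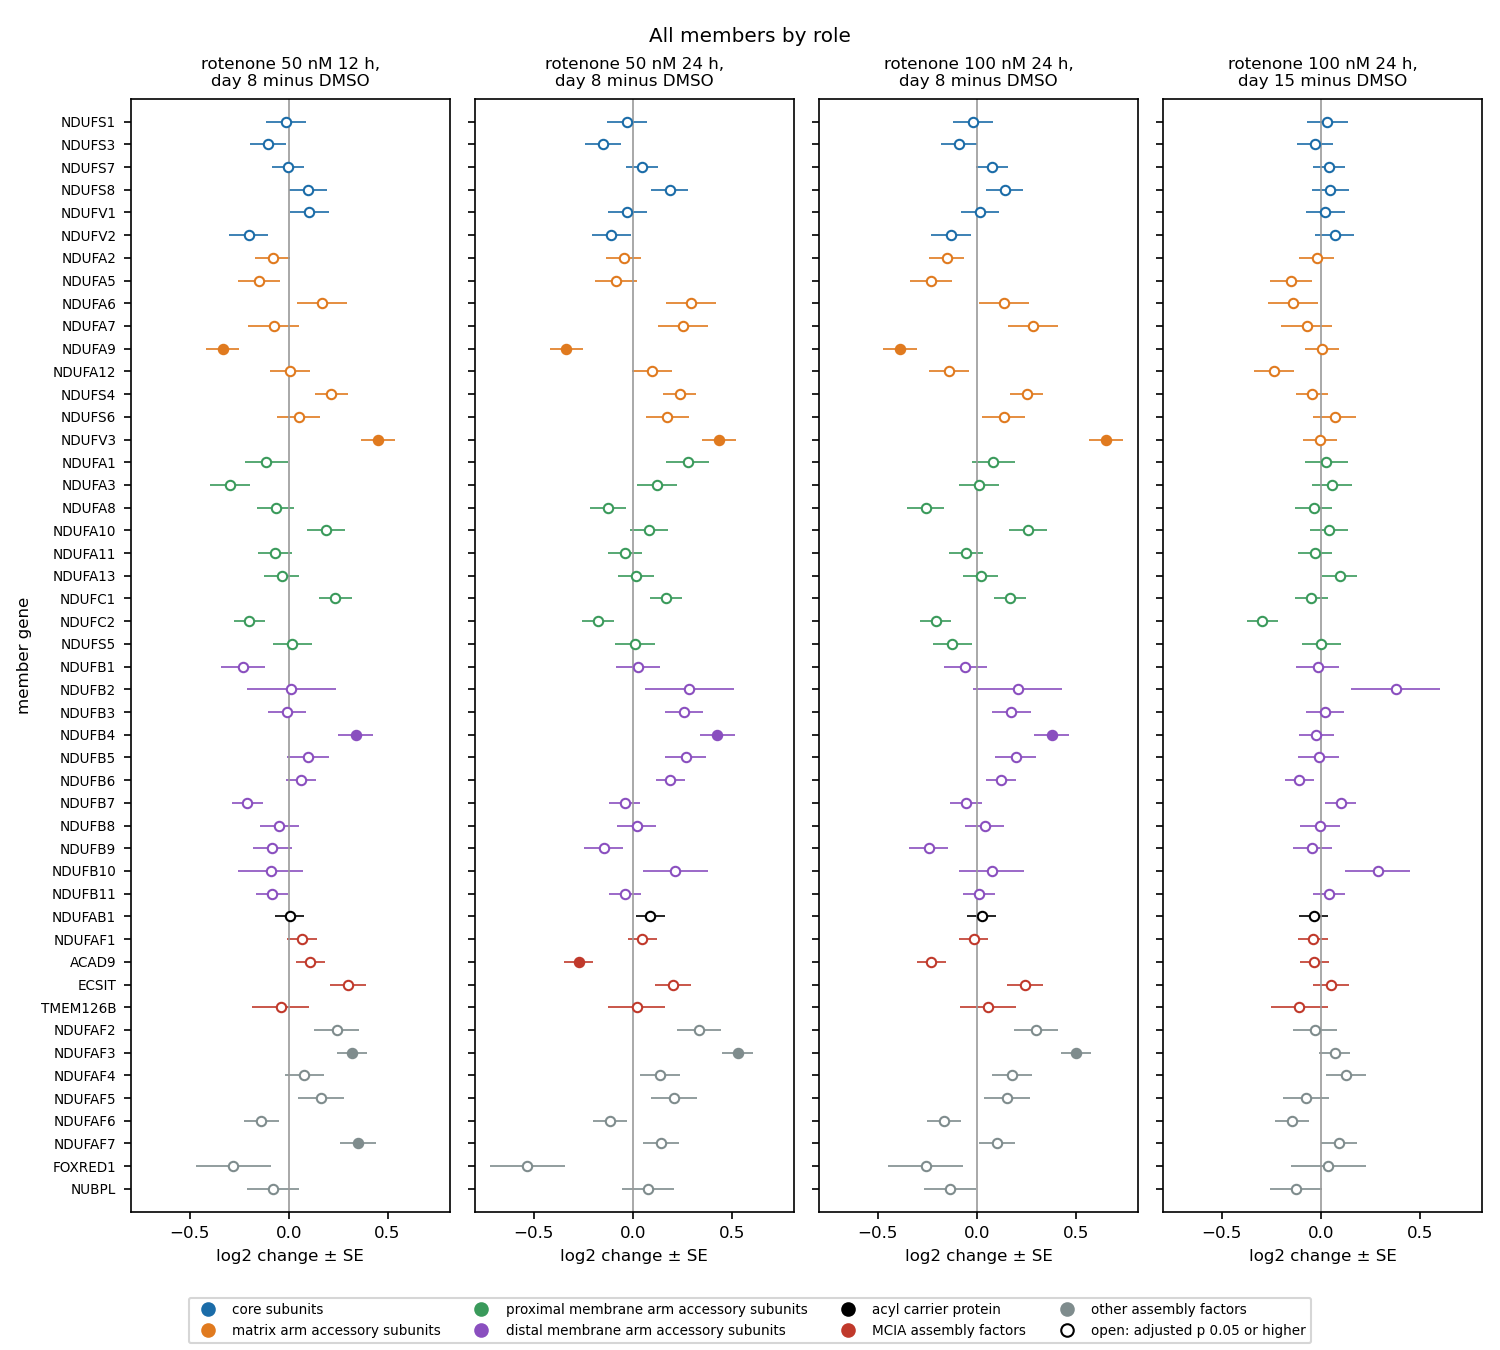
Log2 change of each of the 48 members against the DMSO group of its day (horizontal axes, with SE), in rows by role, at the 3 exposures on day 8 (50 nM for 12 h first, then 24 h at 50 nM and at 100 nM), and after recovery from 100 nM on day 15. Filled points have an adjusted p under 0.05. The filled points are 5, 5, 4 and 0 in the 4 panels, and the core subunits stay within 0.25 of zero in all of them.

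Of the cell type and cell state markers tested, MAP2 alone was called in the same comparison, and the 5 dopaminergic markers were not. MAP2, of neuronal dendrites, fell by 0.57 on the log2 scale with 100 nM on day 8 (SE 0.11, limma adjusted p = 0.0028), while the other 4 neuronal markers were not called. The summed signal of the 5 neuronal markers was 135622 to 157251 in DMSO and 127488 to 141303 with 100 nM. The 5 proliferation markers summed to 387 to 938 in DMSO and 297 to 639 with 100 nM, with 0 of 5 called. Their part in the changes of the complex I genes was not tested.

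The same 4 genes were called at 50 nM, in comparisons that share the DMSO arrays. After 24 h of 50 nM, 3 members (6.25%) were upregulated, where 3.66% of all genes were, and 2 (4.17%) were downregulated, where 4.36% were. NDUFAF3 read 13.19, 13.24 and 13.24, a log2 change of 0.53 ± 0.077 (SE, limma adjusted p = 0.000245). NDUFV3 read 11.24, 11.06 and 11.21, a change of 0.44 ± 0.087. NDUFB4 read 13.71, 13.68 and 13.50, a change of 0.43 ± 0.088. In each of these all arrays lay above the DMSO arrays. NDUFA9 read 9.29, 9.37 and 9.38, all below DMSO, a change of -0.34 ± 0.084 (limma adjusted p = 0.017). No member passed a fold change of 1.5. Arrays did not overlap in 24 of the 48 members (50%) and in 5976 of the 21240 genes tested. Genes with a missing value were left out of this count.

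ACAD9 was downregulated as well after 24 h of 50 nM. It read 9.82, 9.80 and 9.83 in DMSO against 9.54, 9.56 and 9.54, a log2 change of -0.27 ± 0.072 (SE, limma adjusted p = 0.024). Its 2 probes gave -0.25 and -0.29. The call was lost when any 1 of the 6 arrays was left out, at changes of -0.28 to -0.26 and adjusted p of 0.053 to 0.075. NDUFA9 was not called without DMSO replicate 1 (-0.24, limma adjusted p = 0.11) or without replicate 1 of the treated group (-0.30, limma adjusted p = 0.079). FOXRED1, an assembly factor related to amino acid oxidases, read 7.11 on slide 1 against 8.00 and 7.59 on the others, and its change of -0.53 ± 0.19 was not called (limma adjusted p = 0.10). NDUFAF2 was called higher with the slide as a replicate block (limma adjusted p = 0.044).

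After 12 h of 50 nM, 4 members (8.33%) were upregulated, where 2.66% of all genes were, and 1 (2.08%) was downregulated, where 2.85% were. NDUFV3 read 11.21, 11.16 and 11.19, a log2 change of 0.45 ± 0.087 (SE, limma adjusted p = 0.0037). NDUFAF3 read 13.07, 12.97 and 12.99, a change of 0.32 ± 0.077. NDUFB4 read 13.40, 13.61 and 13.61, a change of 0.34 ± 0.088. NDUFA9 read 9.39, 9.37 and 9.30, a change of -0.33 ± 0.084. The groups did not overlap in any of them. This held for 14 of the 48 members (29.2%) and for 5007 of the 21240 genes tested. Genes with a missing value were left out of this count.

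NDUFAF7 was called after 12 h and not after 24 h. It is a methyltransferase that modifies a core subunit early in assembly. It read 9.66, 9.52 and 9.62 in DMSO and 10.03, 9.89 and 9.92 after 12 h of 50 nM, a log2 change of 0.35 ± 0.091 (SE, limma adjusted p = 0.028). At 24 h it read 9.73, 9.68 and 9.82 with 50 nM and 9.67, 9.63 and 9.79 with 100 nM, changes of 0.14 and 0.10 that were not called. The difference of 24 h and 12 h was -0.21 ± 0.091 (limma adjusted p = 0.40), so that the times were not shown to differ. Of the 12 h calls only that of NDUFV3 stood with each of the 6 arrays left out. Those of NDUFAF3, NDUFA9, NDUFB4 and NDUFAF7 were lost in 3, 3, 4 and 5 of the 6, at adjusted p of up to 0.14.

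Dose was compared at 24 h on day 8. Of the 48 members 0 differed between 100 nM and 50 nM in limma, as did 0% of all genes, and 2 members (4.17%) had an unadjusted p under 0.05, the same share as of all genes (4.17%). NDUFV3 came closest, with 100 nM higher by 0.22 ± 0.087 on the log2 scale (95% interval 0.03 to 0.40, limma unadjusted p = 0.022, adjusted p = 1.0). For NDUFAF3, NDUFB4 and NDUFA9 the intervals of the difference were -0.19 to 0.13, -0.24 to 0.14 and -0.23 to 0.12.

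Time was compared at 50 nM. ACAD9 was 1 of 48 members (2.08%) that differed between 24 h and 12 h, where 0.537% of all genes did. It read 9.99, 9.90 and 9.89 at 12 h and 9.54, 9.56 and 9.54 at 24 h, without overlap. The log2 difference was -0.38 ± 0.072 (SE, limma adjusted p = 0.018). The call was lost in 5 of 6 fits that left out 1 of these arrays, at adjusted p of 0.052 to 0.11. With the slide as a replicate block it stood (limma adjusted p = 0.031), and NDUFA3 was called as well (limma adjusted p = 0.024). NDUFA3, of the proximal membrane arm, read 12.90, 12.70 and 13.01 at 12 h and 13.29, 13.26 and 13.31 at 24 h. Its difference was 0.42 ± 0.10 (limma adjusted p = 0.067) without the block. With the block NDUFA3 was also called lower at 12 h of 50 nM against DMSO (limma adjusted p = 0.029).

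After the 7 days of recovery, 0 members were called in limma at any of the 3 exposures, as were 0% of all genes in each comparison. At an unadjusted p under 0.05 there were 2 members (4.17%) after 100 nM, where 7.21% of all genes were. After 50 nM for 24 h there were 4 (8.33%), where 3.28% of all genes were, and after 12 h there were 0, where 3.47% were. After 100 nM the arrays did not overlap in 3 members (6.25%), against 7.84% of all genes. The median log2 change of the members was -0.01, -0.04 and 0.03 in these 3 comparisons. NDUFB2 rose most in each (0.38, 0.25 and 0.26, not called). On slide 3 its changes were 1.25, 1.03 and 1.27 against DMSO replicate 3, which the 3 comparisons share.

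The genes that had changed on day 8 lay near the controls. NDUFV3 read 10.84, 11.01 and 10.99 in DMSO and 10.94, 10.83 and 11.05 after 100 nM, a log2 change of -0.01 (95% interval -0.19 to 0.18). NDUFAF3 read 12.78, 12.88 and 12.93 against 12.98, 12.89 and 12.93, a change of 0.07 (-0.09 to 0.23). NDUFB4 read 13.08, 13.25 and 13.16 against 13.12, 13.07 and 13.22, a change of -0.02 (-0.21 to 0.16). NDUFA9 read 9.03, 9.18 and 9.23 against 9.05, 9.26 and 9.15, a change of 0.01 (-0.17 to 0.18). The groups overlapped in all 4.

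The difference between the days was tested as an interaction of day and 100 nM rotenone. It was lower on day 15 for 2 members (4.17%), where 1.29% of all genes were, and higher for 0, where 1.15% were. NDUFV3 gave -0.66 ± 0.12 (SE, limma adjusted p = 0.0056) and NDUFAF3 gave -0.43 ± 0.11 (limma adjusted p = 0.041). With the slide as a replicate block NDUFAF3 was not called (limma adjusted p = 0.059), and leaving out 1 array ended its call in 9 of 12 fits. NDUFA9 gave 0.39 ± 0.12 (limma adjusted p = 0.094) and NDUFB4 gave -0.40 ± 0.13 (limma adjusted p = 0.11), so that for these genes the days were not shown to differ.

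NDUFC2, a proximal membrane arm subunit needed to assemble the membrane arm, had the smallest p of the members in all 3 comparisons of day 15, which share the DMSO arrays. It read 11.10, 11.16 and 11.16 in DMSO. After 100 nM it read 10.75, 10.96 and 10.83, after 50 nM for 24 h 11.05, 10.87 and 10.79, and after 50 nM for 12 h 11.01, 10.98 and 10.95. All treated arrays lay below all DMSO arrays, with log2 changes of -0.30 ± 0.078 (SE, limma unadjusted p = 0.0013, adjusted p = 0.43), -0.24 ± 0.078 and -0.16 ± 0.078. Its 2 probes differed in size. After 100 nM the dimmer gave -0.48 and the brighter -0.11, after 50 nM for 24 h they gave -0.38 and -0.10, and after 12 h -0.27 and -0.06. On day 8 it was lower as well, by values from -0.21 to -0.18 that were not called.

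**Figure D3:**
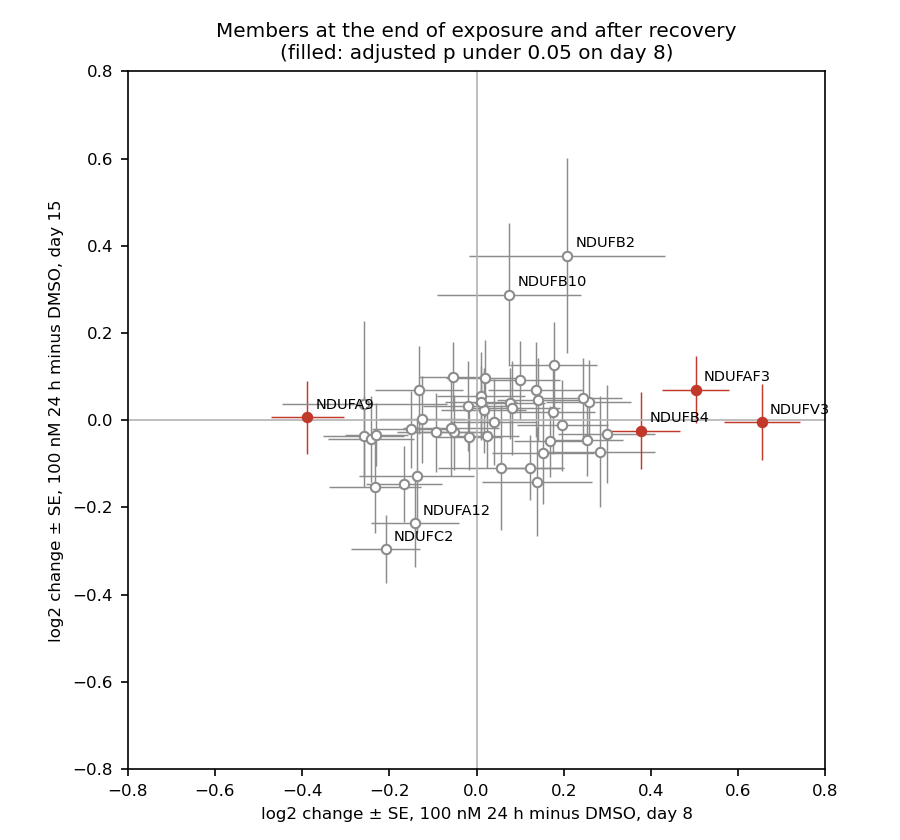
Log2 change of the 48 members after 100 nM for 24 h against DMSO, on day 8 (horizontal axis) and on day 15 (vertical axis), with SE. Filled points were called on day 8. The 4 filled points lie far from zero along the day 8 axis and between -0.02 and 0.07 along the day 15 axis. NDUFC2 has the smallest p on day 15.

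More members were called between day 8 and day 15 in DMSO than in any comparison with rotenone, as were more of all genes. The 12 called are 25% of the list, near the 23.2% of all genes called. Of the 48 members 10 were lower on day 15 (20.8%), where 13.2% of all genes were, and 2 were higher (4.17%), where 10.1% were. The members differed in both directions, with a median log2 change of -0.07 against -0.04 for all genes. The 2 members past a fold change of 1.5 were NDUFB5 and NDUFA7. By role the called members were 2 of 6 core subunits, 3 of 9 of the matrix arm, 2 of 9 of the proximal and 2 of 11 of the distal membrane arm, 1 of 4 MCIA factors and 2 of 8 other assembly factors.

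NDUFB5, of the distal membrane arm, read 10.43, 10.31 and 10.41 on day 8 and 9.59, 9.70 and 9.78 on day 15, a log2 change of -0.69 ± 0.10 (SE, limma adjusted p = 6.9e-05). NDUFA7, of the matrix arm, read 12.16, 12.33 and 12.38 against 11.81, 11.55 and 11.69, a change of -0.60 ± 0.13 (limma adjusted p = 0.0017). ACAD9 read 9.82, 9.80 and 9.83 against 9.23, 9.26 and 9.28, a change of -0.56 ± 0.072 (limma adjusted p = 1.1e-05). These 3 genes were called under every alternative run. Their arrays did not overlap, as in 19 of the 48 members (39.6%) and 8492 of the 21240 genes tested. Genes with a missing value were left out of this count. NDUFA9 read 9.84, 9.64 and 9.58 against 9.03, 9.18 and 9.23, a change of -0.54 ± 0.084 (limma adjusted p = 9.8e-05).

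NDUFB10, a distal membrane arm subunit, had 1 array apart on day 15. It read 12.70, 12.82 and 12.96 on day 8 and 12.46, 12.55 and 11.78 on day 15. The log2 change of -0.56 ± 0.16 (SE, limma adjusted p = 0.017) became -0.33 without DMSO replicate 3 of day 15 and was then not called (limma adjusted p = 0.095). Within the slides it was -0.31, -0.24 and -1.24. The call also ended without DMSO replicate 3 of day 8 (-0.50, limma adjusted p = 0.070). NDUFB2, of the same arm, was not called, and its changes within the slides were 0.03, 0.02 and -1.38.

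The 2 genes that rose were NDUFC1, of the proximal membrane arm, and NDUFA12, of the matrix arm. NDUFC1 read 11.81, 11.87 and 11.97 on day 8 and 12.20, 12.24 and 12.24 on day 15, a log2 change of 0.34 ± 0.082 (SE, limma adjusted p = 0.0043). NDUFA12 read 10.55, 10.72 and 10.70 against 11.01, 10.98 and 10.97, a change of 0.33 ± 0.10 (limma adjusted p = 0.021). The call of NDUFA12 was lost without DMSO replicate 1 of day 8 (0.27) and without replicate 1 or 2 of day 15 (0.32 and 0.33). NDUFAF2, the assembly factor that is a paralog of NDUFA12, gave 0.29 ± 0.11 (limma adjusted p = 0.073), and was called with the slide as a replicate block (limma adjusted p = 0.046). The other members that fell were NDUFAF7 (-0.45), NDUFA3 (-0.39), NDUFAF6 (-0.32) and the core subunits NDUFS1 (-0.30) and NDUFS3 (-0.27). The calls of NDUFS1 and NDUFS3 were lost in 4 and 5 of the 6 fits that left out 1 array.

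Cell state markers moved between the days. All 5 proliferation markers were lower on day 15 in DMSO, from -0.71 (MKI67) to -2.62 (TOP2A and BIRC5) on the log2 scale, and their summed signal was 387 to 938 on day 8 and 134 to 165 on day 15. TH and SLC6A3 of dopaminergic neurons were lower by 2.94 and 2.07, while NR4A2 was higher by 1.57. Of the 5 neuronal markers MAP2 was lower on day 15 (-0.46, limma adjusted p = 0.0064), and their summed signal was 133126 to 156793. GJA1 of astrocytes was also lower (-0.89, limma adjusted p = 0.043), the 1 of 5 astrocyte markers called. GJA1 and TOP2A were well above background on no day 15 DMSO array, so the sizes of their changes are uncertain. Of the 5 proliferation markers 2 were well above background on all of these arrays. The part of the markers in the changes of the complex I genes was not tested.

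**Figure D4:**
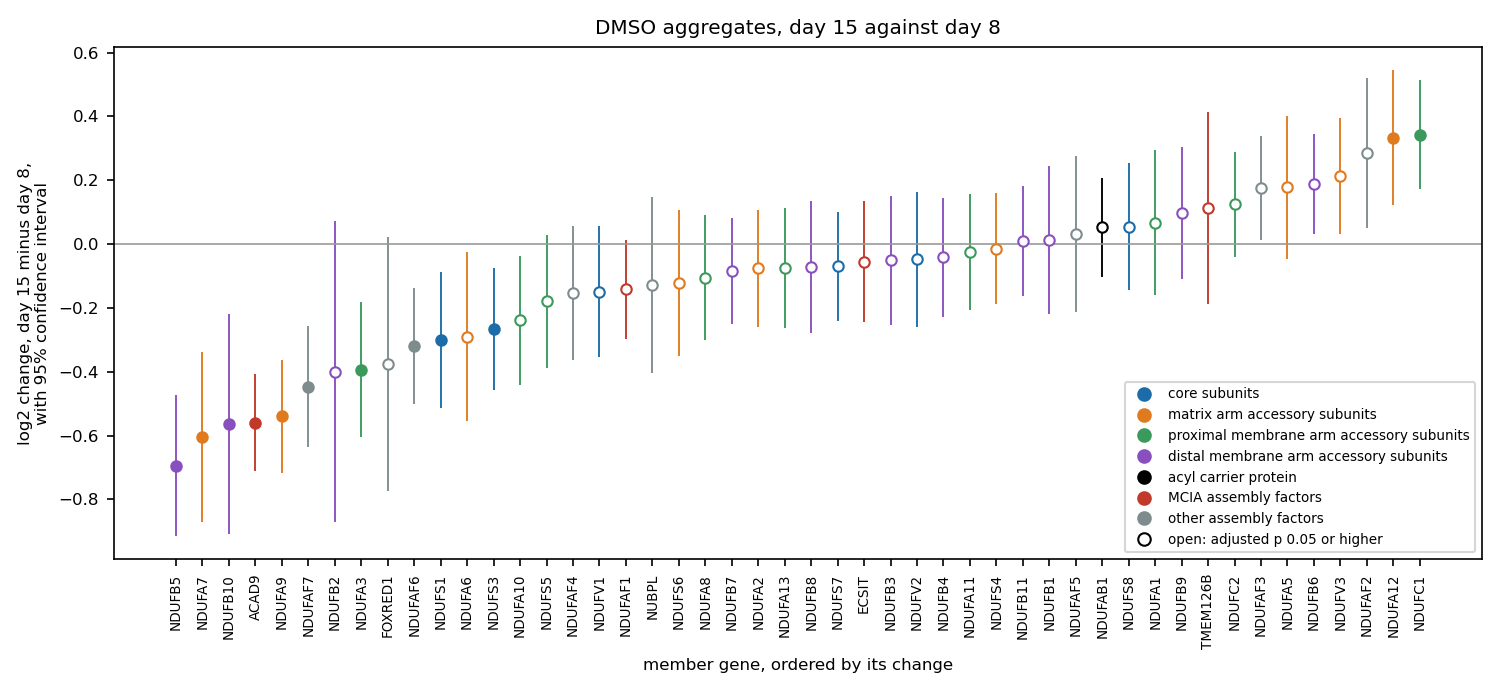
Log2 change of each member in DMSO aggregates, day 15 minus day 8 (vertical axis), with its 95% confidence interval, ordered by size (horizontal axis) and coloured by role. Filled points have an adjusted p under 0.05. The 10 members that fell include NDUFB5, NDUFA7, NDUFB10, ACAD9 and NDUFA9 at the left, and the 2 that rose, NDUFA12 and NDUFC1, stand at the right.

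The rest of the respiratory chain was read from a list of 90 further genes, 87 of which were tested. With 100 nM on day 8, 7 of them were upregulated and 3 were downregulated, with a median log2 change of -0.01. These are 8.05% and 3.45% of the 87, where 4.07% and 5.41% of all genes were called in these directions. The calls were 1 of 7 further complex I assembly genes, 1 of 8 genes of complex II and 1 of 15 of complex III. In complexes IV and V they were 5 of 29 and 1 of 19. Of 9 genes of NADH use or of electron entry to ubiquinone, 1 was called. On day 15 after 100 nM, 0 of 87 were called in limma.

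UQCC2, a complex III assembly factor, read 10.85, 10.84 and 10.70 in DMSO and 11.86, 11.89 and 11.65 with 100 nM, a log2 change of 1.01 ± 0.11 (SE, limma adjusted p = 1e-05). COX17, which hands copper to complex IV, rose by 0.57 ± 0.091, and COX19, of the same copper pathway, fell by 0.77 on the log2 scale (SE 0.095). SDHAF4, an assembly factor of complex II, rose by 0.67 ± 0.15. COA1, which takes part in the assembly of complexes I and IV, rose by 0.30 ± 0.077. ETFDH, which passes electrons from fatty acid oxidation to ubiquinone without complex I, rose by 0.50 ± 0.11. ATP5MC2, a subunit of the rotor ring of ATP synthase, rose by 0.29 ± 0.080 (limma adjusted p = 0.027).

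The direction of the 4 calls with 100 nM on day 8 was the same under all 18 other ways of processing that were run, including each array left out. NDUFV3 was called under all of them (0.59 to 0.71), NDUFAF3 under 17 (0.42 to 0.59), NDUFA9 under 15 (-0.45 to -0.27) and NDUFB4 under 14 (0.33 to 0.44).

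**Figure D5:**
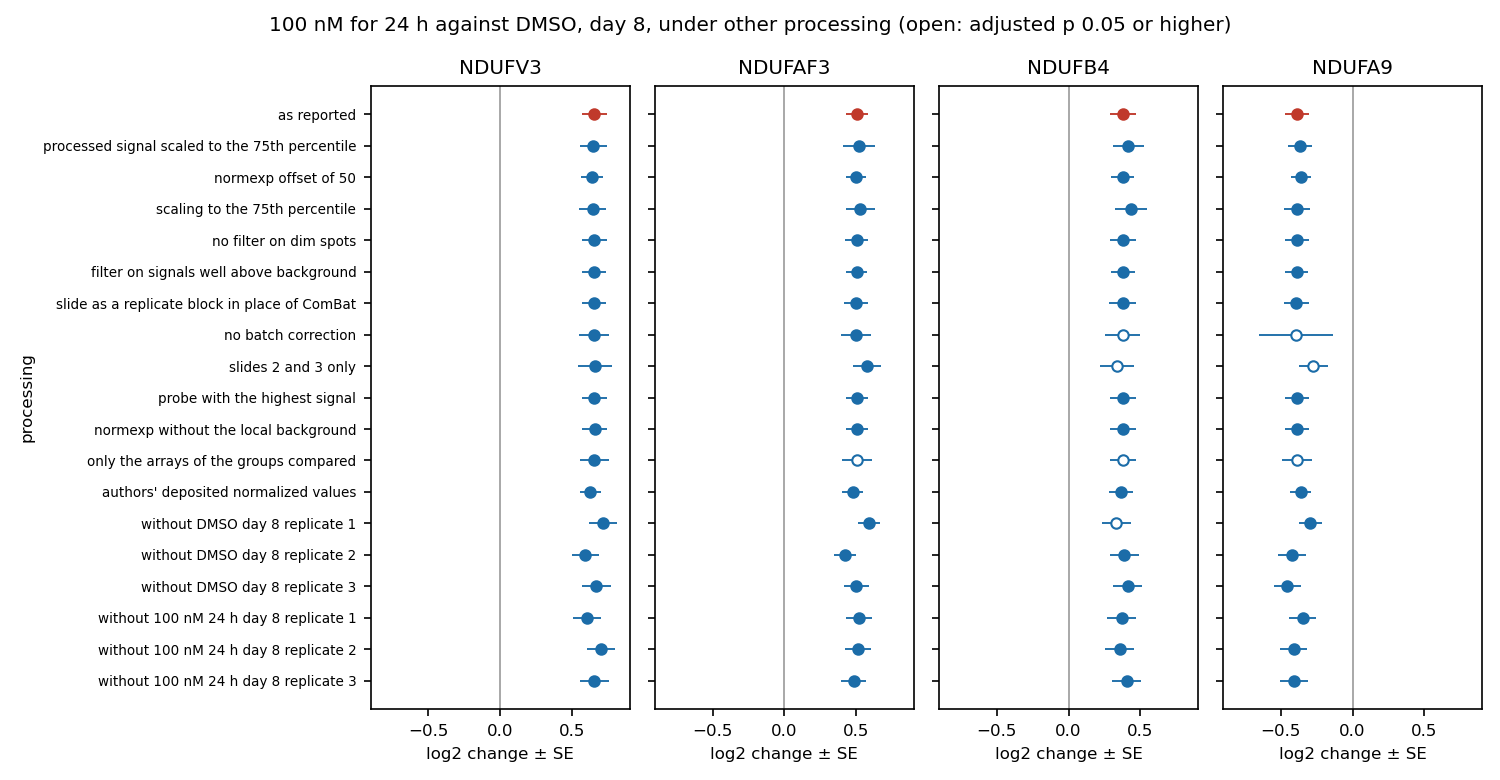
Log2 change, with SE, of the 4 members called with 100 nM for 24 h on day 8 (horizontal axes), as reported (red) and under 18 other ways of processing (blue, rows). Open points have an adjusted p of 0.05 or higher. The values stay on one side of zero in every row, and NDUFV3 is filled in all rows.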

How the data were processed

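RNA of 24 wells of LUHMES aggregates, 3 in each of 8 groups, was hybridized to one-colour Agilent arrays, 8 to a slide. The deposited scanner files hold the intensity of each spot, extracted by the authors with Agilent Feature Extraction 11.5.1.1 per the labels. The headers of slide 2 give another version. A table of log2 normalized values was deposited too, made in R 3.5 per the labels, and it served as an alternative.

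Median intensities were background-corrected (normexp, offset 0), quantile normalized and corrected for slide 1, which the labels name as a repeat that needs this, by parametric ComBat with the groups kept. This lowers the spread between slides before the test, so that p-values can be too small. A spot was kept if, on at least 3 arrays, it exceeded the 95th percentile of the 308 negative controls by a factor of 1.1 (59462 of 62976 spots), control spots and outlier flags were removed and probes were averaged per gene. RefSeq accessions gave 30275 of 50599 probes a gene, and 21240 genes were tested over all arrays with limma 3.58.1 in R 4.3.3, after tests on simulated data. Adjusted p-values are Benjamini-Hochberg over all genes. The array number limits the precision. No column belonged to another series.

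The replicate number is the slide. Deviations of same-numbered arrays from their group means correlated by at least 0.17 in all 84 pairs before correction (median 0.46). The median of 168 other pairs was -0.35. After ComBat these medians were 0.02 and -0.01, and the lowest same-numbered value was -0.43. Since number and slide coincide, these values do not show that wells of one number belong together, which was not tested. Given by array were members called under rotenone or in the interaction, the member of smallest p where none was called, and the 5 largest called changes each way between the days. At most 2 other respiratory genes per complex, by p, were named. Further members were named after their values were seen. The members and lists were chosen with earlier results of these data known. Alternatives were the processed signal, an offset of 50, scaling to the 75th percentile, 2 other filters, the slide as a block, no batch correction, slides 2 and 3 alone, the brightest probe per gene, fits of the compared arrays alone and each array left out.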

Additional observations from a re-analysis of the deposited data

Results flagged for a closer look

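The effect of 100 nM rotenone on NDUFV3 was not the same on the 2 days. The log2 effect on day 15 minus that on day 8 was -0.66 ± 0.12 (SE, limma adjusted p = 0.0056). The effect was 0.65 on day 8 and -0.01 on day 15. The difference lost its call under 3 of 24 alternatives.

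For NDUFAF3 the same difference was -0.43 ± 0.11 (SE, limma adjusted p = 0.041), with effects of 0.50 on day 8 and 0.07 on day 15. It was not called with the slide as a replicate block (limma adjusted p = 0.059), and in all it lost its call under 15 of 24 alternatives.

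ACAD9 differed between 24 h and 12 h of 50 nM rotenone on day 8 by -0.38 ± 0.072 (SE, limma adjusted p = 0.018), with effects against DMSO of -0.27 at 24 h and 0.11 at 12 h. It lost its call under 10 of 18 alternatives.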

How the results depend on the processing

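Counts of members called differed between ways of processing and between sets of arrays. Without batch correction they were 2 for 100 nM on day 8 (4 as reported), 2 for 50 nM for 24 h (5), 1 for 50 nM for 12 h (5), 6 for day 15 against day 8 in DMSO (12), 0 for the interaction (2) and 0 for 24 h against 12 h (1), and 4 other respiratory genes were called (10). With slides 2 and 3 alone they were 2, 1, 0, 4, 0 and 0, with 3 other respiratory genes. With only the compared arrays in the fit they were 1, 0, 0, 5, 0 and 0, with 5 other respiratory genes. These last 2 settings have fewer arrays. An offset of 50 gave 8 for 100 nM, 8 for 12 h, 4 for the interaction and 3 for 24 h against 12 h. The authors' log2 values gave 8 for 100 nM, 2 for 24 h against 12 h and 16 other respiratory genes. The processed signal gave 1 for the interaction and 0 for 24 h against 12 h, scaling to the 75th percentile gave 1 for the interaction, the filter on signals well above background gave 2 for 24 h against 12 h, and the brightest probe gave 0. The cause was not tested.

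With the slide as a replicate block the interaction gave 1 and 24 h against 12 h gave 2, and the other counts stayed within 1.5 times those reported. The block changed 6 member calls, all named above, and no other. Leaving out 1 array gave 3 to 6 calls for 100 nM on day 8, 3 to 5 for 50 nM for 24 h, 2 to 3 for 12 h, 9 to 13 between the days, 1 to 2 for the interaction, 0 to 2 for 24 h against 12 h, 6 to 10 other respiratory genes and 0 in the other 4 comparisons. Across all genes 100 nM gave 2014 calls as reported and 633 without batch correction. The processed signal moved the median of all genes in that comparison to 0.10. After 100 nM on day 15 all genes gave 0 calls as reported, but 35 without treated replicate 1 and 41 without treated replicate 2. The authors' log2 values gave 10 there and an offset of 50 gave 8. Treated replicate 3 of that day deviated most of all arrays from its group mean (SD over genes 0.45). Background correction without the local background, chosen after seeing the data, changed no direction of a named member. Naming probes by a symbol in the files was not run, since they hold none.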
